A study of Mus musculus with 6 samples.

Results

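Toll-like receptors are the membrane sensors with which macrophages recognise microbial molecules. Tlr4, with the co-receptor Cd14 and the small protein Ly96, responds to the bacterial endotoxin LPS. Tlr2 pairs with Tlr1 or Tlr6 at the cell surface and recognises bacterial lipopeptides, while Tlr3, Tlr7, Tlr8, Tlr9 and Tlr13 sit in endosomes and recognise nucleic acids. Most of these receptors signal through the adaptor Myd88, Tlr3 through Ticam1, and Tlr4 through both, which leads to NF-kB and interferon regulatory factors. The genes described here are Tlr1, Tlr2, Tlr3, Tlr4, Tlr6, Tlr7, Tlr8, Tlr9, Tlr13 and Cd14, taken by symbol, 10 of 24454 symbols in the deposited count table. Of these 10, 8 passed the filter on low counts, among 9389 genes tested.

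The RNA, enriched for polyA transcripts, came from primary peritoneal macrophages of C57BL6/J wild-type male mice aged 6 to 8 weeks, held in culture. Each of 3 groups had 2 libraries: vehicle for 5 h, LPS at 10 ng/ml for 4 h, and the aryl hydrocarbon receptor (AHR) ligand SGA360 at 10 µM for 1 h followed by LPS at 10 ng/ml for 4 h. A solvent pretreatment is not named for the LPS group, so SGA360 and its solvent cannot be told apart. Nor is it stated that the 2 libraries of a group are separate animals or cultures. The p-values thus reflect the spread among these samples alone, which may be technical.

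Library totals ran from 7726973 to 9529817 counts. Vehicle replicate 1 stood apart. It detected 10001 symbols, where the other 5 libraries detected 12282 to 12643, and its share of ribosomal Rn45s counts was 4.92%, where theirs ran from 0.22% to 0.684%. Of 10 macrophage markers 9 were detected, with summed levels of 20723 to 24930 CPM (counts scaled to a common, TMM-adjusted library size). Itgam was at 0, but it has 2 transcript rows, and 51.0% of symbols with several rows had no count in any library. Its 0 is thus not read as absence of its RNA. Nearly all of the macrophage sum was Lyz2, at 18255 to 22238 CPM, with no call in any comparison. Of the other macrophage markers, Fcgr1 (−2.39), Mertk (−2.14), Gata6 (−0.48) and Csf1r (−0.34) fell and Adgre1 (1.30) and Timd4 (1.29) rose with LPS against vehicle on the log2 scale. Markers of other cell types were detected as well. All 6 fibroblast markers were detected, at 4680 to 5379 summed CPM in vehicle, 4418 to 4725 with LPS and 4737 to 5208 with SGA360+LPS. Nearly all of that sum was the collagen genes Col1a1, Col1a2 and Col3a1. Dcn and Lum were at 3.33 to 11.7 CPM, and Pdgfra had 0 to 13 counts per library and was not tested. All 8 mesothelial markers were detected too, at 491 to 517, 352 to 354 and 346 to 365 summed CPM. The B cell markers summed to 33.4 to 38.0 CPM over all libraries, with Cd79b at 0 and Cd79a the highest. The mast cell markers summed to 75.2 to 90.2 CPM, with Ms4a2 at 0. Like Itgam, Cd79b and Ms4a2 have several transcript rows. How much of any receptor's RNA came from these other cells was not tested, and in bulk RNA fewer cells of a type and less RNA per cell cannot be told apart.

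Promoter sequences are shown for the genes with the largest called rise and fall among those with an entry in the RefSeq promoter table (build GRCm38.p6, the assembly behind mm10), which covers 7 of the 10 genes with 9 windows. Each window holds the 250 bases before a RefSeq start site. Tlr2 rose most and Tlr13 fell most with LPS. Tlr2 lies on the minus strand, window chr3:83841609-83841858, and Tlr13 on the plus strand, window chrX:106143025-106143274. Both windows end at the start of the deposited transcript. A 30-base stretch of the Tlr3 window, chr8:45410572-45410601 on the minus strand, is shown because it is the other match to the NF-kB consensus among these genes. Sequences run 5′ to 3′, and capitals mark the motif matches.
Tlr2: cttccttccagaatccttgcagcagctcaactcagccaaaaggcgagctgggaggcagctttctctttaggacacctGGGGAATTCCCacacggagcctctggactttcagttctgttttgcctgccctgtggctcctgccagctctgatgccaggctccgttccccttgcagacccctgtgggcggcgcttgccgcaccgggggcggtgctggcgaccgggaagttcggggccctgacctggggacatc
Tlr13: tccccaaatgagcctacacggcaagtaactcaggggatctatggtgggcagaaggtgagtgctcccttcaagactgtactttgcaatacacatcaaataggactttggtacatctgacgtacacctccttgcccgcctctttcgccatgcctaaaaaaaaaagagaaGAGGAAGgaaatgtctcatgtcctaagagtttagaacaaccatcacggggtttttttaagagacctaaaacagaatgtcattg
Tlr3: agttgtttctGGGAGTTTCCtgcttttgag

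Motifs were searched on both strands of each window. The capitals in Tlr2, between 173 and 163 bases before the start site, hold overlapping matches to the NF-kB consensus. The Tlr3 match lies between 211 and 202 bases before the RefSeq start site. That site lies 159 bases from the start of the deposited Tlr3 transcript, which falls inside the window. An NF-kB match was found in 7.25% of all 32851 windows of the table. The capitals in Tlr13 are GAGGAAG, a core bound by the macrophage factor PU.1, which also stood in the windows of Tlr1 and Tlr9 and in 10.6% of all windows. The AP-1 motif TGANTCA was in the Tlr9 window (6.75% of all windows). The interferon response motif, read as 2 GAAA cores with 2 bases between them (2.98% of all windows), was in a Tlr6 window whose start site lies 868 bases from the start of the deposited transcript, and not in the Tlr6 window 14 bases from it. GCGTG, the core of the AHR response element, was in none of the 9 windows and in 28.2% of all windows. These matches are descriptions of the letters in these windows.

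With LPS against vehicle, 5 of the 8 tested genes rose (Tlr1, Tlr2, Tlr3, Tlr6 and Cd14), 2 fell (Tlr4 and Tlr13), and Tlr9 passed no threshold. A gene was called where its Benjamini-Hochberg adjusted p over all genes tested, from the quasi-likelihood test of edgeR, was under 0.05. The background is high in this comparison: 36.4% of all tested genes were called, 19.4% higher and 17% lower. All 7 called genes, and also Tlr8 and Tlr9, had LPS libraries that did not overlap the vehicle libraries, as did 65.9% of all tested genes. The median log2 fold change was 1.15 over the 8 genes and −0.0084 over all tested genes. With SGA360+LPS against LPS, 0 of the 8 genes were called, where 0.0746% of all tested genes were.

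**Figure D1:**
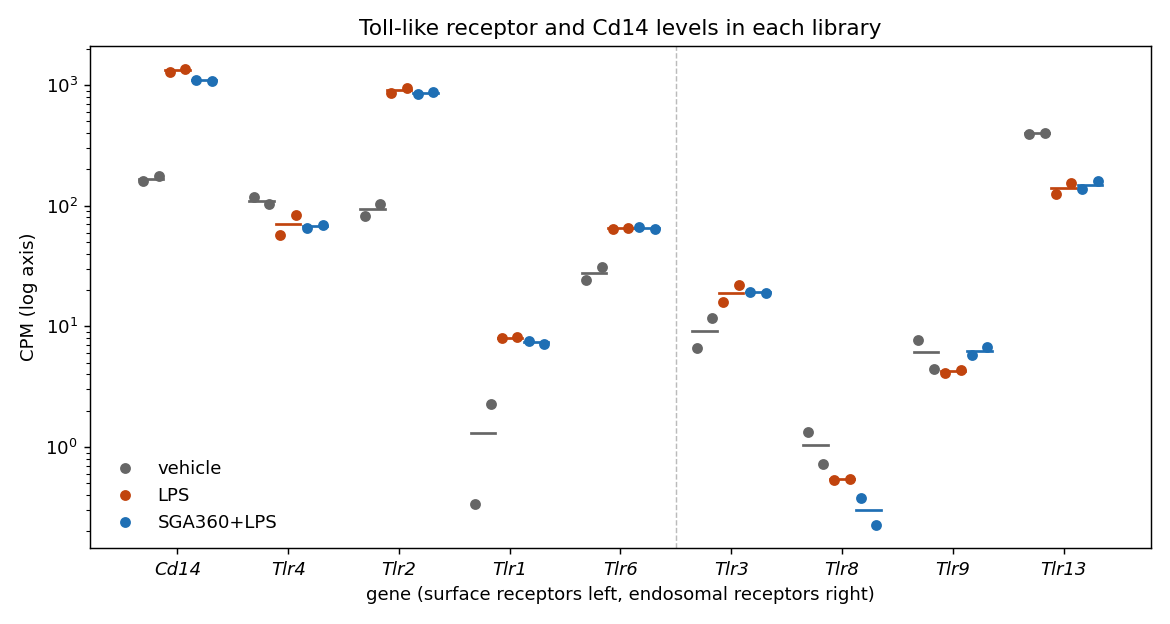
Level of each gene in each library in CPM on a log axis. Points are the 2 libraries of a group and lines their mean, with surface receptors and Cd14 to the left of the dashed line and endosomal receptors to the right. Tlr7, with 0 counts in every library, is not drawn. Cd14 and Tlr2 stood at 838 to 1367 CPM in the LPS-treated libraries and at 82.6 to 176 CPM in vehicle, while Tlr13 and Tlr4 were lower in the LPS-treated libraries.

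Cd14 encodes the surface protein that hands LPS on to the Tlr4 complex. The gene lies on chromosome 18. It was at 160.1 and 176 CPM in the vehicle libraries, 1279 and 1367 CPM with LPS, and 1114 and 1093 CPM with SGA360+LPS. The 3 groups did not overlap, and vehicle was lowest and LPS highest. Against vehicle the log2 fold change with LPS was 2.98 (SE 0.07, 95% interval 2.81 to 3.14; adjusted p = 1.01e-09), a 7.87-fold rise.

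Tlr4 itself, the signalling receptor for LPS, moved the other way. Tlr4 (NM_021297) lies on the plus strand of chromosome 4, at 66827551 to 66846581 in mm10. It stood at 117 and 104 CPM in vehicle, 56.9 and 83.4 CPM with LPS, and 64.9 and 69.8 CPM with SGA360+LPS. All LPS-treated libraries lay below both vehicle libraries, and the LPS pair was the widest. The log2 fold change with LPS was −0.65 (SE 0.15; adjusted p = 0.00825). Without LPS replicate 1 it was −0.38 and not called (adjusted p = 0.0706, where all alternatives gave 1.45e-07 to 0.0706).

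Scaled to the deposited exon length within each library, Cd14 transcripts were 6.48 and 8.06 times as abundant as Tlr4 transcripts in vehicle. With LPS these ratios were 107 and 77.8, and with SGA360+LPS 81.5 and 74.3. The ratio was larger in every LPS-treated library than in vehicle. Its size depends on the length used for Tlr4: with lengths of the longest coding GENCODE transcripts it was 3.39 and 4.22 in vehicle, 55.8 and 40.7 with LPS, and 42.6 and 38.9 with SGA360+LPS.

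Tlr2, the shared partner in lipopeptide recognition, had the largest fold change of the 8 genes. Its transcript (NM_011905) spans chromosome 3 from 83836272 to 83841608. Its levels were 82.6 and 104 CPM in vehicle, 859.6 and 947 CPM with LPS, and 838 and 875 CPM with SGA360+LPS. Vehicle was separate from the other groups, which overlapped each other. The rise with LPS was 3.27 on the log2 scale (SE 0.11, 95% interval 3.03 to 3.51; adjusted p = 8.10e-09), or 9.66-fold.

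Tlr6, which with Tlr2 recognises diacylated lipopeptides, rose less. It went from 24.2 and 31.1 CPM in vehicle to 64.8 and 66.0 CPM with LPS, and was at 66.3 and 64.1 CPM with SGA360+LPS. The LPS-treated libraries lay close together and above vehicle. The log2 fold change was 1.24 (SE 0.13; adjusted p = 3.79e-05). Per deposited exon length, the Tlr2 to Tlr6 ratio was 3.10 and 3.05 in vehicle, 12.1 and 13.1 with LPS, and 11.5 and 12.4 with SGA360+LPS. With lengths of the longest coding GENCODE transcripts it was 4.15 and 4.09, then 16.2 and 17.5, then 15.4 and 16.7.

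Tlr1, the partner of Tlr2 for triacylated lipopeptides, had few counts, 3 and 22 in the vehicle libraries, 60 and 75 under LPS, and 60 and 64 under SGA360+LPS. In CPM these were 0.335 and 2.29, then 7.98 and 8.20, then 7.62 and 7.17, so that vehicle was again separate. The log2 fold change with LPS was 2.59 (SE 0.55; adjusted p = 0.00443). Its size rests on the vehicle libraries: it was 1.83 without vehicle replicate 1 and 4.55 without vehicle replicate 2, called in both cases (all alternatives gave adjusted p of 3.45e-09 to 0.029). The table has 2 transcript rows for Tlr1, and in the GENCODE annotation only 337 and 95 of their exon bases are specific to a row.

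Tlr1 and Tlr6 are neighbours and close paralogs. Their spans on the minus strand of chromosome 5 (mm10) are 64924680 to 64933558 for Tlr1 (NM_001276445 and NM_030682) and 64953095 to 64960034 for Tlr6 (NM_011604), with 19536 bases between them. Their longest coding transcripts share an identical run of 229 bases, and 15.3% of the 50-base words of Tlr1 and 12.6% of those of Tlr6 also occur in other genes, nearly all in the partner. The sources used here do not say how shared reads were counted, so the level of Tlr1 is uncertain and that of Tlr6 may omit reads. For Cd14, Tlr2, Tlr3, Tlr4, Tlr9 and Tlr13 no 50-base word occurred in a transcript of another gene.

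Among the endosomal receptors, Tlr13 fell most. This sensor of bacterial ribosomal RNA was at 394 and 404 CPM in vehicle, 126 and 153 CPM with LPS, and 137 and 160.1 CPM with SGA360+LPS. Vehicle was separate from the other groups, which overlapped. The log2 fold change with LPS was −1.51 (SE 0.10, 95% interval −1.74 to −1.28; adjusted p = 1.55e-06), a 2.85-fold fall. Tlr13 (NM_205820) lies on the plus strand of chromosome X, at 106143275 to 106160493.

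Tlr3, the sensor of double-stranded RNA, moved the opposite way. Its values were 6.59 and 11.7 CPM in vehicle, 15.8 and 22.2 CPM with LPS, and 19.3 and 18.9 CPM with SGA360+LPS. All LPS-treated libraries lay above vehicle. The log2 fold change with LPS was 1.06 (SE 0.27; adjusted p = 0.0111). It was 0.80 and not called without LPS replicate 2 (adjusted p = 0.12, where all alternatives gave 7.73e-06 to 0.12), 0.74 without vehicle replicate 1 and 1.56 without vehicle replicate 2. Tlr3 (NM_126166) lies on the minus strand of chromosome 8, at 45395665 to 45410539, and overlaps the antisense gene Gm45542, whose reads cannot be told apart without strand.

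Tlr9, the sensor of unmethylated CpG DNA, gave no call in any of the 3 comparisons. Its levels were 7.71 and 4.47 CPM in vehicle, 4.12 and 4.37 CPM with LPS, and 5.84 and 6.72 CPM with SGA360+LPS, on 31 to 69 counts. Tlr9 (NM_031178) sits on chromosome 9 between 106222598 and 106226876. Both LPS libraries lay just under the lower vehicle library, and the SGA360+LPS libraries lay between the vehicle libraries. The log2 fold change with LPS was −0.51 (SE 0.35, 95% interval −1.30 to 0.27; adjusted p = 0.29). Without vehicle replicate 2 it was −0.84 and called (adjusted p = 0.014, where all alternatives gave 0.014 to 0.902), and without vehicle replicate 1 it was −0.055. Tlr9 is also a B cell gene, and the summed B cell markers were at 33.4 to 37.8 CPM in vehicle and 36.8 to 38.0 CPM with LPS.

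The sensors of single-stranded RNA, Tlr7 and Tlr8, were not tested. Tlr7 had 0 counts in all 6 libraries, which by counting error alone allows up to 3 counts in each. It has 5 transcript rows, and none of them has an exon base in GENCODE that no other matched row shares. Tlr8 had 12 and 7 counts in the vehicle libraries, 4 and 5 under LPS, and 3 and 2 under SGA360+LPS, all in 1 of its 3 rows. Only 1.87% of counts fell on the 5639 symbols with more than 1 row, so nothing is said here on whether either gene was expressed.

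**Figure D2:**
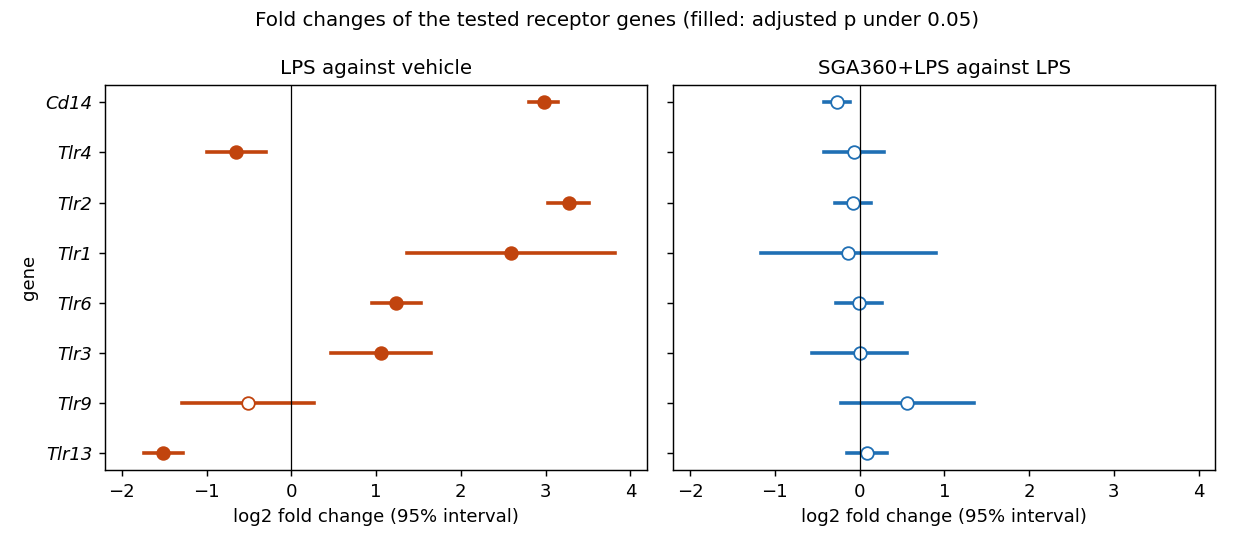
Log2 fold change of the 8 tested genes with the 95% interval of edgeR's quasi-likelihood fit, for LPS against vehicle (left) and SGA360+LPS against LPS (right). Filled points passed an adjusted p of 0.05. With LPS 5 genes lay above 0 and 2 below it with a call, while in the right panel each point is open and lies between −0.26 and 0.56.

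The comparison of SGA360+LPS with LPS asks whether the AHR ligand altered these receptor genes under endotoxin. No gene of the 8 was called by edgeR, and 1 had an unadjusted p under 0.05. That gene was Cd14, lower in both SGA360+LPS libraries than in both LPS libraries, with a log2 fold change of −0.26 (SE 0.07, 95% interval −0.41 to −0.11; unadjusted p = 0.00334, adjusted p = 1.00), or 1.20-fold. DESeq2 called it (adjusted p = 0.0482, the lowest over its alternatives, which ran up to 1), and limma-voom did not (0.8). With 1 library left out at a time the value stayed between −0.31 and −0.21. Groups of 2 that do not overlap were common in this comparison, at 39.5% of all tested genes.

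For the other genes the intervals show how large a difference the data leave possible. That of Tlr2 ran from −0.29 to 0.14, that of Tlr6 from −0.28 to 0.27, that of Tlr13 from −0.14 to 0.33 and that of Tlr4 from −0.42 to 0.29 on the log2 scale. The intervals of Tlr3 (−0.56 to 0.57), Tlr1 (−1.17 to 0.91) and Tlr9 (−0.22 to 1.35), which had fewer counts, were wider. Tlr9 stood at 0.56 (SE 0.35; adjusted p = 1.00), with both SGA360+LPS libraries above both LPS libraries.

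With SGA360+LPS against vehicle, the same 7 genes were called as with LPS against vehicle, each in the same direction, where 33.1% of all tested genes were called. Both comparisons use the same vehicle libraries. The 7 genes again had groups that did not overlap, as did 64.9% of all tested genes. Cd14 stood at 2.71 (SE 0.07), Tlr2 at 3.20 (SE 0.11), Tlr1 at 2.46 (SE 0.55), Tlr6 at 1.23 (SE 0.13) and Tlr3 at 1.06 (SE 0.27) on the log2 scale. Tlr4 stood at −0.71 (SE 0.15) and Tlr13 at −1.42 (SE 0.10). The calls of Tlr3 (1.07, adjusted p = 0.0643) and Tlr4 (−0.64, adjusted p = 0.0661) were lost without SGA360+LPS replicate 1, and that of Tlr3 also without SGA360+LPS replicate 2 (1.09, adjusted p = 0.06). Tlr8, not among the 7, was tested only with a lower filter or with 1 library left out. It was called lower only without vehicle replicate 2 (−2.10, adjusted p = 0.0383).

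Levels of different genes were compared per kilobase of the deposited exon length, for the 7 genes with 1 transcript row. In vehicle the order was Cd14 at 101 ± 6.78 CPM per kb, Tlr13 at 99.3 ± 1.85, Tlr2 at 32.7 ± 5.37, Tlr4 at 14.0 ± 1.23, Tlr6 at 10.6 ± 1.87, Tlr3 at 2.11 ± 0.826 and Tlr9 at 1.75 ± 0.659 (mean ± SD, n = 2). The libraries of Cd14 and Tlr13 overlapped, as did those of Tlr3 and Tlr9, so neither pair differed beyond its spread. In each vehicle library Tlr13 was above the other receptors with 1 row.

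With LPS the order changed. Cd14 reached 795 ± 37.7 CPM per kb and Tlr2 316 ± 21.7, followed by Tlr13 at 34.7 ± 4.81, Tlr6 at 25.1 ± 0.341, Tlr4 at 8.89 ± 2.37, Tlr3 at 4.39 ± 1.04 and Tlr9 at 1.22 ± 0.0508 (SD, n = 2). No neighbours overlapped. With SGA360+LPS the order was the same, from 663 ± 9.05 for Cd14 to 1.81 ± 0.179 for Tlr9.

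The places of Tlr4 and Tlr6, and that of Tlr2 beside Tlr4 in vehicle, depend on the length used. The deposited exon length of Tlr4 is 7894 bases, against 4077 in its longest coding GENCODE transcript, and that of Tlr6 is 2602 against 3677. With the GENCODE lengths Tlr4 was at 27.1 and Tlr6 at 7.53 CPM per kb in vehicle, and at 17.2 and 17.8 with LPS. The Tlr2 to Tlr4 ratio in the vehicle libraries was 1.94 and 2.78 with the deposited lengths, and 0.952 and 1.36 with the GENCODE lengths.

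**Figure D3:**
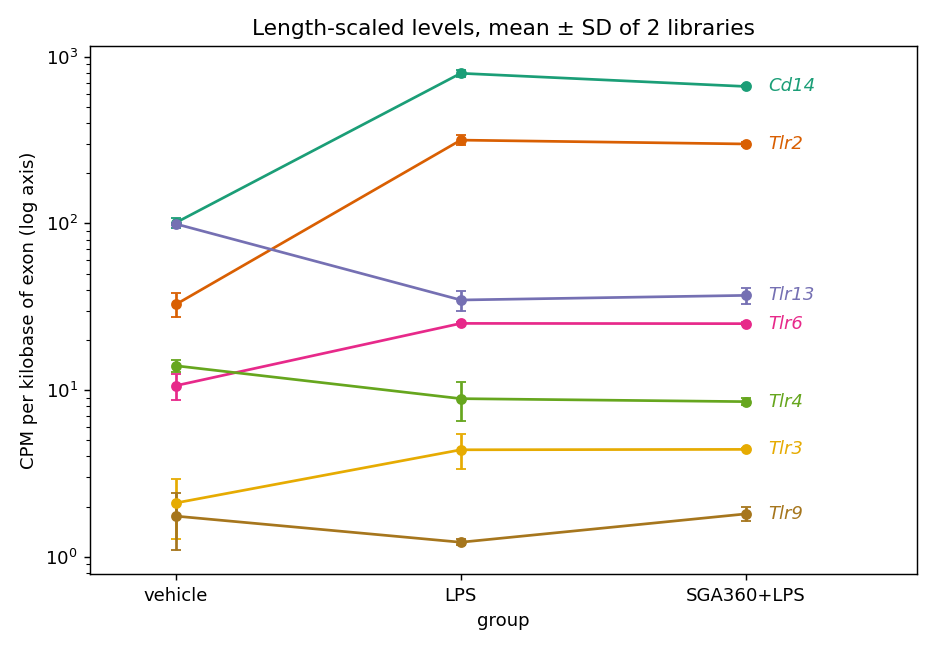
Mean level per kilobase of deposited exon length, on a log axis, in the 3 groups for the 7 genes with 1 transcript row. Bars are the SD of 2 libraries. Tlr2 crosses Tlr13 and Tlr6 crosses Tlr4 between vehicle and LPS, the latter as drawn with the deposited lengths, and the order is the same with LPS and with SGA360+LPS.

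By the distance between centred log2 CPM over the 6 libraries, the genes most like Tlr2 among 6956 compared included Fabp3 (distance 0.26) and Nfkbia (0.27). Those most like Cd14 were Slfn2 (0.16), Ehd1 (0.18) and Vcam1 (0.24). These names rest on the vehicle libraries. Without vehicle replicate 1, 0 of the closest 3 genes stayed among the closest 3 for Tlr2 or Cd14, and without vehicle replicate 2, 0 stayed for Tlr2 and 1 for Cd14.

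The genes through which the receptors are assembled and signal were taken from 8 lists of 76 genes in all, of which 47 were tested. With LPS against vehicle 24 rose, 8 fell and 15 had no call, with a median log2 fold change of 0.35. Over all tested genes 36.4% were called, 19.4% higher and 17% lower, and the median was −0.0084. Most of the 29 untested genes have several transcript rows, and Ly96, the Tlr4 co-receptor, had 0 counts in all libraries in its 2 rows.

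**Figure D4:**
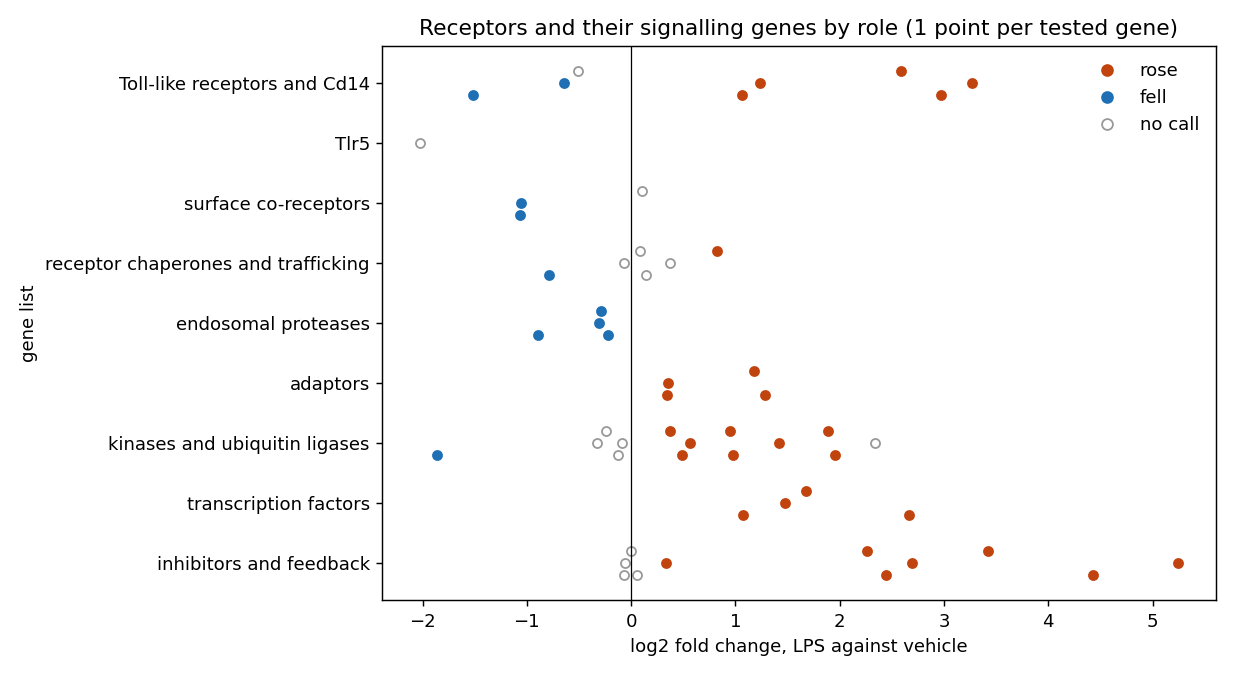
Log2 fold change with LPS against vehicle of the tested receptor genes and of 47 tested genes of their pathways, in rows by role. Filled red points rose and filled blue points fell at an adjusted p of 0.05, and open points had no call. Transcription factors and adaptors lie to the right of 0, and endosomal proteases to the left.

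Among surface co-receptors, 2 of 3 tested genes fell, where 17% of all tested genes were called lower. Cd180, a relative of Tlr4 that restrains its signal, went from 254 ± 22.3 to 122 ± 7.87 CPM (log2 fold change −1.06, SE 0.09), and its partner Ly86 from 119.8 ± 11.8 to 57.4 ± 0.981 CPM (−1.06, SE 0.10; SD, n = 2). Of the other Toll-like receptors, Tlr5, the flagellin sensor, was tested alone. It had 12 and 58 counts without and 7 and 8 counts under LPS, with no call (−2.02, adjusted p = 0.0633). With no filter except a count above 0 it was called (−2.00, adjusted p = 0.0141). Without vehicle replicate 1 it was called (−2.71, adjusted p = 9.78e-05), and without vehicle replicate 2 it was −0.55 (adjusted p = 0.486).

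Of 6 tested genes of receptor folding and transport, 1 rose and 1 fell. This is near the share over all tested genes, of which 36.4% were called. The endoplasmic reticulum protein gene Lrrc59 rose by 0.83 (SE 0.07), and Rftn1, which encodes the lipid raft protein raftlin, fell by 0.79 (SE 0.08) on the log2 scale. Unc93b1, the chaperone that carries nucleic acid receptors to endosomes, stood at 0.37 (SE 0.16; adjusted p = 0.107). With no filter except a count above 0 it was called (0.40, adjusted p = 0.038). It was called without vehicle replicate 2 (0.66, adjusted p = 0.000575) and was 0.16 without vehicle replicate 1 (adjusted p = 0.32). All 4 tested endosomal proteases, enzymes of the compartment in which these receptors are cleaved, fell, where 17% of all tested genes were called lower: Lgmn by 0.90 (SE 0.06), Ctsk by 0.31 (SE 0.08), Ctsb by 0.29 (SE 0.06) and Ctsl by 0.22 (SE 0.06). Ctsk lost its call without LPS replicate 1 or 2 (adjusted p = 0.115 and 0.0777), and Ctsl without LPS replicate 1 (0.149).

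All 4 tested adaptors rose, where 19.4% of all tested genes were called higher. Myd88 went from 103 ± 22.4 to 233 ± 17.8 CPM (1.18, SE 0.13), and Pik3ap1, which links receptors to phosphoinositide kinase, rose by 1.28 (SE 0.07). Ticam1 (0.35, adjusted p = 0.0357) and Ticam2 (0.34, adjusted p = 0.0353), the adaptors of the interferon branch, rose by less. Both lost their call in DESeq2 (adjusted p = 0.0734 and 0.0582) and when LPS replicate 1, LPS replicate 2, vehicle replicate 2 or either SGA360+LPS library was left out, with adjusted p up to 0.173.

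Of 14 tested kinases and ubiquitin ligases 8 rose and 1 fell, where 19.4% of all tested genes were called higher and 17% lower. The kinase gene Ikbke rose by 1.89 (SE 0.06). Of the Pellino ubiquitin ligase genes, Peli1 rose by 1.95 (SE 0.10) and Peli3 by 1.42 (SE 0.32), while Peli2 fell by 1.86 (SE 0.24). Peli3 lost its call without LPS replicate 2 (adjusted p = 0.0601). All 4 tested transcription factor genes rose, where 19.4% of all tested genes were called higher. They were led by the NF-kB subunit genes Nfkb1 (2.67, SE 0.10) and Rel (1.68, SE 0.13), then Nfkb2 (1.47, SE 0.45) and Rela (1.07, SE 0.08). Nfkb2 has 3 transcript rows and 12 to 36 counts per library, and lost its call without any 1 of the LPS-treated libraries (adjusted p up to 0.172). With its rows tested singly it was 0.74 and not called (adjusted p = 0.352).

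Of 11 tested inhibitors and feedback genes 7 rose, where 19.4% of all tested genes were called higher. The median of the 11 was 2.26, the highest of the 8 lists. Tnip3, which restrains NF-kB with Tnfaip3, went from 7.43 ± 0.235 to 161 ± 3.72 CPM (4.43, SE 0.11). Nfkbia, encoding IkB alpha, rose by 3.42 (SE 0.09), and Irak3, a kinase family member that blocks Myd88 signalling, by 2.69 (SE 0.10). Tnfaip3, encoding the deubiquitinase A20, stood at 5.24 (SE 0.98; adjusted p = 0.00214) from 0 and 1 counts without LPS and 24 and 18 under LPS over 2 transcript rows, so its fold is uncertain.

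With SGA360+LPS against LPS, 0 of the 47 pathway genes were called by edgeR and 0 by DESeq2 or limma-voom, and 4 had an unadjusted p under 0.05. These 4, named after their values were seen, were the inhibitor genes Tnip3 (−0.24, SE 0.08), Nfkbia (−0.22, SE 0.08), Zc3h12a (−0.24, SE 0.10) and Atf3 (0.19, SE 0.07). All 4 are in the list of 11 tested inhibitors and feedback genes. Among 47 genes a few can pass an unadjusted 0.05 without any difference between groups, and none passed the adjusted threshold. No effect of SGA360 is thus read from these 4. Without SGA360+LPS replicate 2, Nfkbia was −0.13 and Zc3h12a −0.14. Myd88 stood at −0.16 (SE 0.12), Ticam1 at 0.04 (SE 0.11) and Unc93b1 at −0.06 (SE 0.16), each with adjusted p = 1.00. With each library left out in turn these ran from −0.24 to −0.074, from 0.021 to 0.061 and from −0.13 to −0.0013, with the value nearest 0 without LPS replicate 2 for Myd88 and Ticam1 and without SGA360+LPS replicate 1 for Unc93b1. With SGA360+LPS against vehicle 23 of the 47 rose and 9 fell, where 17.9% of all tested genes were called higher and 15.2% lower. Cd180 stood at −0.92 (SE 0.09) there, Lgmn at −0.85 (SE 0.06), Nfkb1 at 2.56 (SE 0.10) and Peli2 at −1.83 (SE 0.24), all called. The kinase gene Irak4 was called lower there (−0.37, SE 0.12; adjusted p = 0.0465) and lost that call without any 1 library other than vehicle replicate 1 (adjusted p up to 0.395).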

How the data were processed

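For 6 polyA RNA libraries the authors deposited read counts, as whole numbers, for each RefSeq transcript row, with a gene symbol, a position and an exon length in bases. TopHat2 2.0.13, HTSeq 0.5.4p3 and mm10 are named in the submitters' processing notes. Strand setting, annotation version and handling of shared reads are not given there. The 34751 rows were summed to 24454 symbols. Symbols with several rows are uncertain: 51.0% of them had no count in any library, against 37.1% of symbols with 1 row. Positions are 1-based. Groups and replicate numbers are those of the labels.

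Genes were filtered (filterByExpr, minimum count 10), scaled by TMM and tested in 1 edgeR 4.0.16 quasi-likelihood model (R 4.3.3) over 3 groups, with 3 residual degrees of freedom and a common biological coefficient of variation of 0.0951. Standard errors are the log2 fold change over the square root of F, and intervals are 95%. The script was tested on simulated data. DESeq2 1.42.0, limma-voom (limma 3.58.1), RLE scaling, other filters, a threshold of 0.01, rows tested singly and each library left out were alternatives. Floors of 3 counts and other counting limits cover counting error only. Annotation came from GENCODE vM21 (GRCm38). The replicates of a group differed by more than sampling noise, so none was treated as a duplicate.

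The members and lists were chosen with earlier results of these data known. Named are all 10 members, up to 4 called genes of each list per comparison with a mean of at least 1 CPM, of which the main ones are given, and Ly96, Unc93b1, Myd88 and Ticam1. Likeness to Tlr2 and Cd14 used genes with 1 row and at least 5 CPM and took the closest 3 for each, of which 1 is not reported here. Tlr5, Irak4 and 4 genes in the SGA360 comparison were named after their values were seen, as were the alternative length for levels and ratios and the alternatives for pathway genes and likeness.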

Additional observations from a re-analysis of the deposited data

How the results depend on the processing

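Over the 15 alternatives, 6 to 8 of the receptor genes were called with LPS against vehicle, 0 or 1 with SGA360+LPS against LPS and 5 to 8 with SGA360+LPS against vehicle. The 1 gene called with SGA360+LPS against LPS was Cd14 in DESeq2. The share of all tested genes called moved with the setting too. Where both libraries of every fitted group were kept, it ran from 23.6% to 43.5% with LPS against vehicle. It ran from 0.0426% to 0.132% with SGA360+LPS against LPS, and from 21.8% to 40.2% with SGA360+LPS against vehicle. The labels do not say what a shared replicate number stands for. The replicate differences of vehicle and LPS correlated at −0.0066, of vehicle and SGA360+LPS at 0.015, and of LPS and SGA360+LPS at 0.16. Vehicle replicate 1, which stood apart, enters the first 2 values, and these values cannot tell whether an animal or day was shared. With the replicate block 7, 0 and 7 genes were called. Values near 0 changed sign. With SGA360+LPS against LPS, Tlr3 was −0.0077 with these 2 groups fitted alone. With each library left out in turn, Tlr3 ran from −0.22 to 0.27, Tlr4 from −0.31 to 0.25, Tlr6 from −0.027 to 0.016 and Tlr13 from −0.045 to 0.24 in that comparison, and Tlr9 from −0.27 to 0.51 with SGA360+LPS against vehicle.

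Over all genes, 3413 were called with LPS against vehicle, 5494 without vehicle replicate 2, 2217 and 2091 without LPS replicates 1 and 2, and 2216 at 0.01. The 7 genes called with SGA360+LPS against LPS became 11 in DESeq2, 17 with no filter, 12 with the 2 groups alone, 4 at 0.01, 15 and 16 without vehicle replicates 1 and 2, 3 without LPS replicate 1, and 0 without LPS replicate 2 or either SGA360+LPS library. With SGA360+LPS against vehicle 3107 became 5315 without vehicle replicate 2, 1831 and 1872 without SGA360+LPS replicates 1 and 2, and 2050 at 0.01. The cause was not tested. Few counts limit Tlr1, Tlr3, Tlr8 and Tlr9.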
